A study of Mus musculus with 21 samples.

Results

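Pcdh8, Dok3, Gzmm, Sesn2, Gm19710, Phf1, Sox8 and Csrnp2 were the 8 genes of a deposited table of 20900 whose transcripts were higher after 2 h of either of a pair of RNA polymerase I inhibitors and lower again at 8 h. The expression values were log2 values centred within each library on the median of 14666 genes, those with a deposited log2 value above 0 in at least 3 libraries, so that 0 is the level of a library's median gene. A gene was kept when its deposited mean over the 21 libraries was at least 0, its group mean at 2 h exceeded the control by at least 0.8 with both inhibitors, and its mean at 8 h was below that at 2 h by at least 0.5 with both. There were 13684 genes with such a mean, and 375 of them passed the 2 h criterion. All 8 genes were among the 14666 tested. The 8 were thus chosen by their control, 2 h and 8 h levels, so their changes at those times are given as a description without a test. The 4 h libraries entered only the mean over libraries, and the same 8 genes were found with that mean taken over the 15 libraries of the other times.

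The poly(A) RNA came from E14 embryonic stem cells, an established mouse line of the 129 strain, grown in serum with leukaemia inhibitory factor. Cells were plated the day before and the medium was changed for medium with 1 µM BMH-21 or 1 µM CX-5461 for 2, 4 or 8 h. The 0 h cells, without inhibitor, were the control for both compounds, which gave 7 groups of 3 replicates and 21 libraries. There was no control at 2, 4 or 8 h, so the inhibitor, the new medium and the time in culture cannot be told apart in any difference from control. The labels do not say whether replicates were separate cultures, so p-values measure the spread between these libraries, which may be technical. All cells were of 1 line, without a p53-deficient or otherwise altered comparison.

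RNA polymerase I transcribes the ribosomal DNA in the nucleolus. When its activity is blocked, unassembled ribosomal proteins of the 5S particle can bind MDM2, and p53 is stabilised. BMH-21 and CX-5461 are both DNA-binding small molecules used to block this polymerase, and CX-5461 is also known to stabilise G-quadruplexes and to trap topoisomerase II. Short-lived rises in mRNA after a stimulus are best known for the immediate early genes, such as Fos and Egr1, whose transcripts turn over fast. A difference in a poly(A) library can come from synthesis or from decay of the transcript, and in bulk RNA a change in the number of expressing cells and a change in RNA per cell cannot be told apart.

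The start-proximal sequence of 4 of the genes is shown because the promoters of the 8 shared little of the motifs searched for. Each is given 5′ to 3′ on the gene's strand, from RefSeq on GRCm38.p6, and positions are counted from the start of transcription, with the base before it at -1. Capitals mark the motif found. For Pcdh8 (chr14:79771313-79771392, minus strand) they mark a TATA box whose first base lies at -30, for Sox8 (chr17:25570797-25570876, minus strand) an E-box at -152 and for Gzmm (chr10:79688830-79688909, plus strand) a match to the dioxin response element at -154. The stretch just before the RefSeq start of Sesn2 (chr4:132510457-132510536, minus strand) held none of the motifs. Part of that stretch lies inside the GENCODE model of Sesn2 given below.
Pcdh8: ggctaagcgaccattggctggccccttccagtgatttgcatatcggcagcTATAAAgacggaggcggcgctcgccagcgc
Sox8: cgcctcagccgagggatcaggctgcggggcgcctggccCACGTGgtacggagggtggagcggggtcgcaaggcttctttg
Gzmm: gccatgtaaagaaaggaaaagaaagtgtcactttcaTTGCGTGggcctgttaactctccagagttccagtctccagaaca
Sesn2: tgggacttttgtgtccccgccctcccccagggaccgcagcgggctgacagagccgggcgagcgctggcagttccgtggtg

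Sesn2 encodes a sestrin, a stress-induced protein that restrains mTORC1 when leucine is short and a known target of p53 and of ATF4. It had by far the most transcript of the 8, with 26.7 ± 1.22 (SD, n = 3) RPKM (reads scaled to exon length and to the library's total) in control, and it alone was higher with CX-5461 than with BMH-21 at 2 h. Its centred log2 levels in replicates 1 to 3 were 2.21, 2.36 and 2.29 in control, and 3.60, 3.65 and 3.65, then 3.36, 3.41 and 3.40, then 2.79, 2.69 and 2.77 at 2, 4 and 8 h of BMH-21. With CX-5461 they were 3.83, 3.82 and 3.81 at 2 h, 3.38, 3.31 and 3.33 at 4 h and 2.54, 2.58 and 2.59 at 8 h. Every treated library lay above every control, and each step down from 2 to 4 to 8 h was free of overlap with either compound. The 2 h means were 2.54-fold and 2.89-fold the control with BMH-21 and CX-5461, which are log2 differences of 1.34 and 1.53. At 8 h 34.3% of the BMH-21 difference and 18.3% of the CX-5461 difference were left on the centred log2 scale.

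Pcdh8 encodes a protocadherin, a cell adhesion protein known from paraxial mesoderm and neurons. It started as the rarest transcript per length, at 0.14 ± 0.01 RPKM or 30 to 38 reads in a control library, and had the largest 2 h difference of the 8 with BMH-21, 2.92 (7.55-fold), while that with CX-5461 was 1.41 (2.66-fold), second to Sesn2. Its levels were -4.90, -4.74 and -4.97 in control, and -1.98, -2.00 and -1.88 at 2 h, -1.88, -1.77 and -1.71 at 4 h and -2.95, -2.85 and -2.95 at 8 h of BMH-21. CX-5461 gave -3.52, -3.60 and -3.27 at 2 h, -3.39, -3.13 and -3.42 at 4 h and -4.26, -3.92 and -4.11 at 8 h. The 9 BMH-21 libraries all lay above the 9 CX-5461 libraries, and these above the controls. Only the neighbouring 2 h and 4 h groups of CX-5461 overlapped in the order of its 7 groups. Pcdh8 kept most of its difference from control, 67.1% with BMH-21 and 55.1% with CX-5461 at 8 h, so its decline was partial.

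Dok3 encodes an adaptor docking protein that restrains kinase signalling in immune cells. It had 35 to 54 reads in control libraries, at levels of -4.29, -4.86 and -4.53. With BMH-21 it stood at -2.26, -2.15 and -2.44 at 2 h, -2.24, -2.43 and -2.43 at 4 h and -3.67, -3.29 and -3.57 at 8 h. With CX-5461 it stood at -3.67, -3.43 and -3.40, then -3.42, -3.50 and -3.56, then -3.79, -4.18 and -4.06. The 2 h and 4 h libraries of one compound overlapped each other, so Dok3 held a plateau from 2 to 4 h, higher with BMH-21 (4.84-fold the control at 2 h) than with CX-5461 (2.08-fold). All 8 h libraries were above every control, with 46.1% and 51.8% of the 2 h difference left. Its decline with CX-5461, by 0.51 from 2 to 8 h, passed the criterion of 0.5 by the smallest margin.

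Gzmm encodes granzyme M, a serine protease of the cytotoxic granules of natural killer cells. It kept the smallest share of its 2 h difference at 4 h. Its levels were -4.61, -4.74 and -4.36 in control, and -2.68, -2.67 and -2.42, then -3.46, -3.48 and -3.23, then -4.12, -4.70 and -4.41 at 2, 4 and 8 h of BMH-21. With CX-5461 they were -3.43, -3.49 and -3.61, then -4.14, -4.49 and -4.18, then -4.77, -4.66 and -5.12. Both compounds gave their highest libraries at 2 h, and the 8 h libraries overlapped the controls, although 1 of BMH-21 lay above and 2 of CX-5461 below every control. Of a 2 h difference of 1.98 (3.94-fold) with BMH-21, 59.6% was left at 4 h and 8.22% at 8 h. With CX-5461 the 2 h difference was 1.06 (2.09-fold), 28.3% was left at 4 h, and the 8 h mean was 0.28 below control on the centred scale. In RPKM Gzmm was not below control at 8 h of CX-5461, with 0.55 ± 0.09 against 0.54 ± 0.08. The counts behind these values were small, 38 to 46 reads in control libraries and 140 to 174 at 2 h of BMH-21.

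Phf1 encodes a Polycomb-like protein, an accessory subunit that brings Polycomb repressive complex 2 to chromatin. It was 1 of only 3 members with more than 100 reads in every library, and its level was highest at 4 h. Levels were -1.17, -1.41 and -1.10 in control, and 0.01, 0.00 and -0.00, then 0.15, 0.34 and 0.32, then -0.90, -0.82 and -0.71 over the BMH-21 times. Over the CX-5461 times they were -0.20, -0.21 and -0.21, then -0.09, -0.19 and -0.12, then -0.91, -0.93 and -0.83. With either compound the 4 h libraries lay above the 2 h libraries without overlap, and the 8 h libraries still lay above every control. The transcript went from 2.34 ± 0.27 RPKM in control to 6.90 ± 0.42 at 4 h of BMH-21 and 5.56 ± 0.18 at 4 h of CX-5461. On the centred scale about equal shares of the 2 h difference were left at 8 h, 34.0% and 33.2%. The deposited scale did not keep this, with 2 h differences of 1.15 and 0.87 and changes to 8 h of -0.95 and -0.32.

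Csrnp2 encodes a nuclear protein rich in cysteine and serine, of a small family with DNA-binding activity. Its levels were 0.41, 0.46 and 0.30 in control, and 1.28, 1.42 and 1.40, then 1.42, 1.35 and 1.33, then 0.21, 0.25 and 0.30 with BMH-21. With CX-5461 they were 1.33, 1.41 and 1.34, then 1.01, 1.01 and 0.95, then 0.26, 0.36 and 0.39. At 2 h the compounds overlapped and differed by 0.01, with 1.97-fold and 1.95-fold the control. At 4 h BMH-21 held 99.6% of that difference and CX-5461 61.5%. At 8 h the 3 BMH-21 libraries lay below every control library on the centred scale, with a mean difference of -0.14. The margin was slight, as the highest of them and the lowest control both round to 0.30. In RPKM the order was the reverse, 6.46 ± 0.23 at 8 h of BMH-21 against 5.71 ± 0.28 in control. A level below control at 8 h thus depended on the scale. The CX-5461 libraries at 8 h overlapped the controls on the centred scale.

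Sox8 encodes a SoxE transcription factor of neural crest, glia and Sertoli cells. Its levels were -4.29, -4.09 and -4.56 in control (40 to 60 reads), and -3.19, -3.11 and -3.04, then -3.18, -3.40 and -3.15, then -4.67, -4.62 and -4.44 with BMH-21. With CX-5461 they were -3.50, -3.39 and -3.48, then -3.82, -3.42 and -3.83, then -4.24, -4.37 and -4.11. All 2 h and 4 h libraries lay above the controls, and neighbouring groups among those 4 overlapped. The BMH-21 libraries at 8 h were all below the lowest 8 h CX-5461 library, the reverse of the order at 2 and 4 h. The 2 h differences were 1.20 and 0.85, and the 8 h means stood 0.27 below and 0.07 above control on the centred scale. In RPKM Sox8 was not below control at 8 h of BMH-21, with 0.32 ± 0.03 against 0.31 ± 0.05.

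Gm19710, annotated as a long intergenic noncoding RNA with no role that can be given here, stood nearest to the 2 h criterion. Its levels were -4.82, -4.47 and -5.02 in control, and -3.12, -3.39 and -3.39, then -3.46, -3.48 and -3.49, then -4.14, -4.44 and -4.71 with BMH-21. With CX-5461 they were -4.12, -3.84 and -3.95, then -3.98, -4.62 and -4.40, then -4.80, -4.87 and -4.23. The BMH-21 libraries at 2 and 4 h stood clear of the controls, whereas the CX-5461 libraries overlapped them from 4 h on. Its 2 h difference with CX-5461 was 0.802, the smallest of the 8 and just inside the criterion of 0.8, and it rested on 52 to 75 reads a library against 29 to 46 in control.

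**Figure D1:**
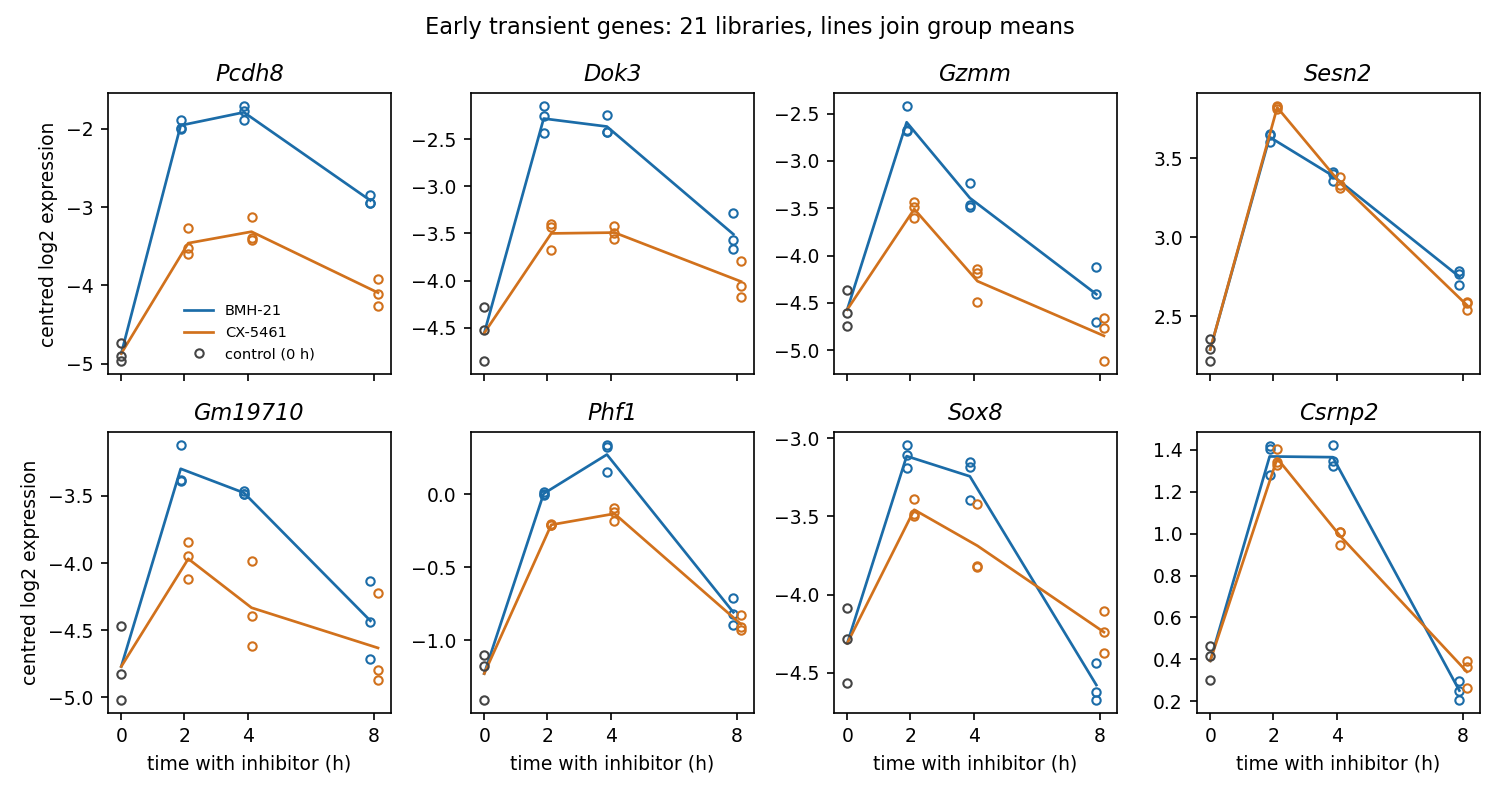
Centred log2 expression (y axis, 0 is the library's median gene) of the 8 genes against hours with inhibitor (x axis), with 1 circle per library, 3 per group, and lines joining group means. Blue is BMH-21, orange CX-5461 and grey the shared control. The y axes differ between panels. Pcdh8 and Phf1 were highest at 4 h, Gzmm at 8 h reached the range of the controls with BMH-21 and lay partly below it with CX-5461, and the Sesn2 curves of both compounds nearly coincided at 4 h.

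The 8 genes shared the 2 h increase and differed in how it ended. By group means, 6 of the 8 were highest at 2 h with BMH-21, and Pcdh8 and Phf1 at 4 h. In Dok3, Sox8 and Csrnp2 the 2 h and 4 h BMH-21 libraries overlapped, and the means differed by 0.08, 0.13 and 0.0035. In RPKM Csrnp2 was higher at 4 h of BMH-21 (11.7) than at 2 h (11.2). With CX-5461, 5 were highest at 2 h and Pcdh8, Dok3 and Phf1 at 4 h. For Dok3 the CX-5461 means at 2 and 4 h differed by 0.01, within the spread of the replicates. The 2 h and 4 h libraries of CX-5461 also overlapped in Pcdh8, Gm19710 and Sox8. At 8 h Pcdh8, Dok3, Sesn2, Gm19710 and Phf1 were still more than 0.3 above control with BMH-21, and Gzmm, Sox8 and Csrnp2 were within 0.3 of it. With CX-5461, Pcdh8, Dok3 and Phf1 were more than 0.3 above control and the other 5 within it. On the centred scale the word transient thus covered a near return to control for Gzmm, Sox8 and Csrnp2 and a partial decline for Pcdh8, Dok3 and Phf1.

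**Figure D2:**
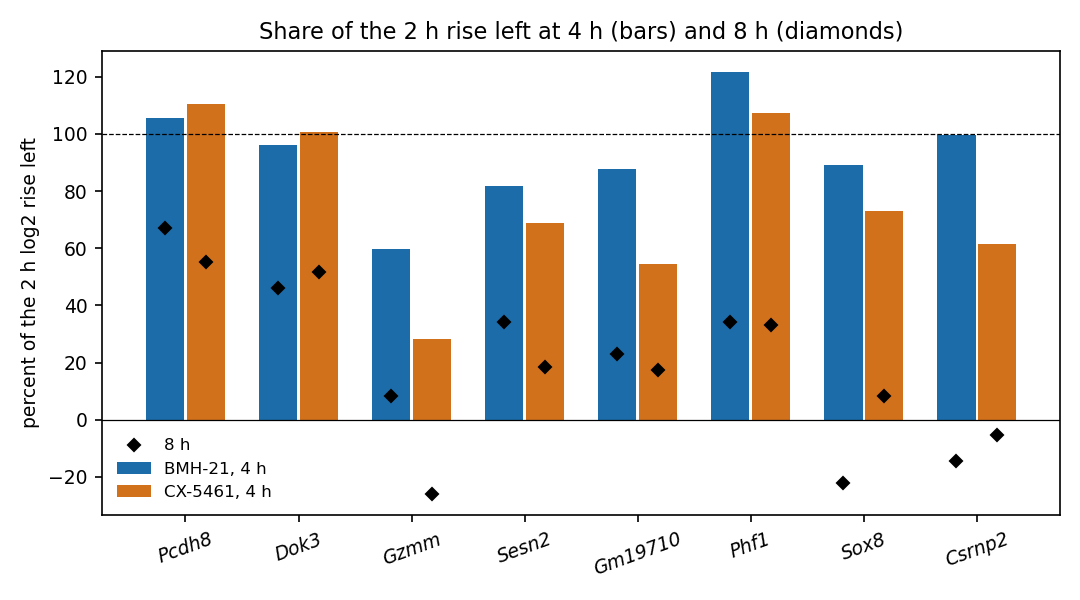
Percent of the 2 h log2 difference from control that was left at 4 h (bars) and at 8 h (diamonds) for each gene, from group means of 3 libraries, blue for BMH-21 and orange for CX-5461. The dashed line at 100% is the 2 h level and negative values lie below control on the centred scale. At 4 h the share ran from 59.6% (Gzmm) to 122% (Phf1) with BMH-21 and from 28.3% (Gzmm) to 110% (Pcdh8) with CX-5461.

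Whether the compounds differed was tested at 4 h, whose libraries entered the choice of genes only through the mean over libraries. Transcripts of Pcdh8, Dok3, Gzmm, Phf1, Sox8 and Csrnp2 were higher with BMH-21 than with CX-5461 at 4 h, and the difference for Sesn2 did not pass the test. The test was a linear model in limma over all 21 libraries, two-sided, with Benjamini-Hochberg adjustment over 14666 genes at a threshold of 0.05. Of all genes tested 27.4% were called higher with BMH-21 and 18.5% lower, so a call of either kind was common. Calls with BMH-21 higher were 59.7% of all calls on this scale, 52.4% on the deposited one and 42.2% under median-ratio scaling. The largest difference was that of Pcdh8, 1.53 ± 0.12 (SE; limma adjusted p = 9.6e-10). Dok3 followed with 1.12 ± 0.15 (adjusted p = 1.9e-06) and Gzmm with 0.88 ± 0.17 (adjusted p = 0.00019). In each of these 3 all BMH-21 libraries lay above all CX-5461 libraries.

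The differences of 3 other genes were smaller. Phf1 was higher with BMH-21 by 0.40 ± 0.07 (limma adjusted p = 4.5e-05), Csrnp2 by 0.38 ± 0.05 (adjusted p = 2.3e-06) and Sox8 by 0.44 ± 0.15 (adjusted p = 0.017). The Sox8 groups barely separated, at -3.40 for the lowest BMH-21 library and -3.42 for the highest CX-5461 library, and its call was lost when replicate 1 or 3 of either 4 h group was left out (adjusted p = 0.053 to 0.077), and on the deposited scale (adjusted p = 0.12). Gm19710 differed by 0.86 ± 0.20, given as a description because its mean over the 12 control and CX-5461 libraries was -0.0021, so that it met the mean criterion only through the BMH-21 libraries. For Sesn2 the difference was 0.05 ± 0.04 (adjusted p = 0.32), with an unadjusted 95% interval from -0.03 to 0.12, and the libraries overlapped. All 3 BMH-21 libraries were above all 3 CX-5461 libraries in each gene but Sesn2, as in 33.2% of all genes tested.

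At 2 h and 8 h, whose libraries chose the genes, the differences between compounds are a description. BMH-21 minus CX-5461 at 2 h was 1.50 for Pcdh8, 1.22 for Dok3, 0.92 for Gzmm, 0.67 for Gm19710, 0.34 for Sox8, 0.21 for Phf1, 0.01 for Csrnp2 and -0.19 for Sesn2. At 8 h the same genes in the same order had 1.18, 0.50, 0.44, 0.20, -0.34, 0.08, -0.09 and 0.18. Pcdh8 thus showed a difference of similar size at all 3 times. In Csrnp2 the compounds were close at 2 h and 8 h and apart at 4 h.

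**Figure D3:**
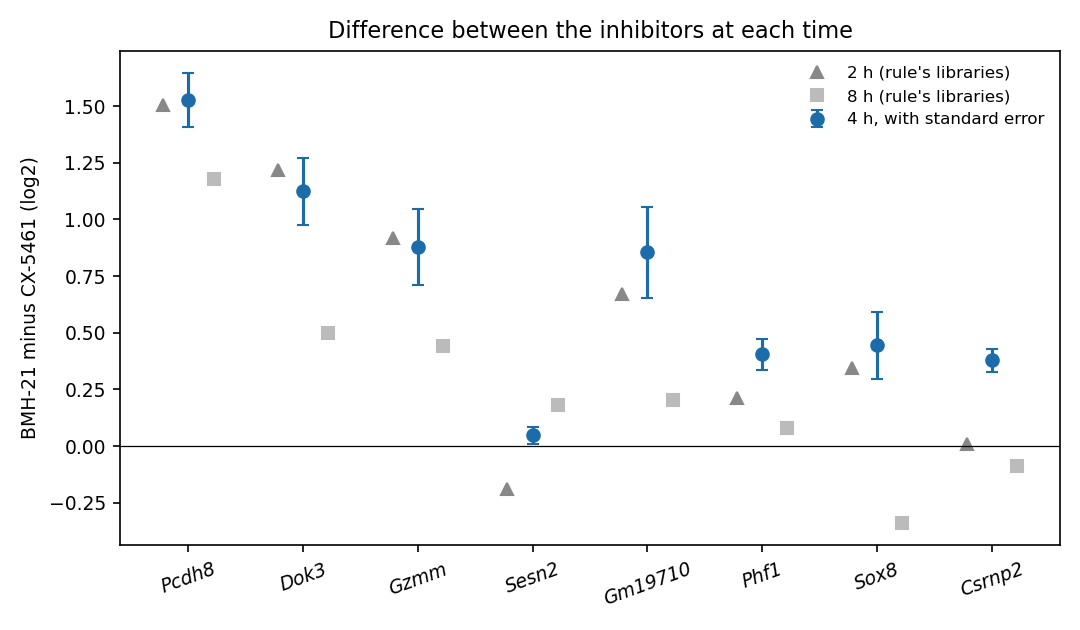
BMH-21 minus CX-5461 on the centred log2 scale for each gene at 2 h (triangles), 4 h (circles, with standard error from limma) and 8 h (squares), each from 3 libraries a group. Libraries at 2 h and 8 h chose the genes, and those at 4 h entered only the mean over libraries. At 4 h the circles run from 1.53 for Pcdh8 down to 0.05 for Sesn2.

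Against control, which both compounds share and which also helped choose the genes, 8 of 8 were called higher at 4 h of BMH-21, where 32.2% of all genes tested were. With CX-5461 6 of 8 were, where 28.5% of all genes were. Nothing is read from these counts. The exceptions were Gzmm, at 0.30 (limma adjusted p = 0.11), and Gm19710, at 0.44 (adjusted p = 0.053). At 4 h 2 of the 3 CX-5461 libraries were above every control in each of these genes. Under median-ratio scaling both passed the threshold, at 0.39 (adjusted p = 0.042) and 0.53 (adjusted p = 0.021).

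Most genes that were higher at 2 h did not decline. Of the 375 that met the 2 h criterion, 301 declined by 0.5 with neither compound, 64 with CX-5461 alone, 2 with BMH-21 alone and 8 with both. The median change from 2 to 4 h was -0.11 with BMH-21 and -0.30 with CX-5461 in the 8, and 1.69 and 1.25 in the other 367, a difference that the choice of genes fixes in part. At 4 h 52 of the 64 genes that declined with CX-5461 alone were called higher with BMH-21 than with CX-5461, and 2 lower. Their choice by a decline with CX-5461 alone fixes that direction in part, so nothing is read from this count. Among the 301 genes 152 were called higher and 16 lower. Of all genes tested 27.4% were called higher and 18.5% lower. By the 301 genes, a higher level with BMH-21 at 4 h was not confined to the 8. The median control level was -4.43 in the 8 and -3.64 in the other 367.

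**Figure D4:**
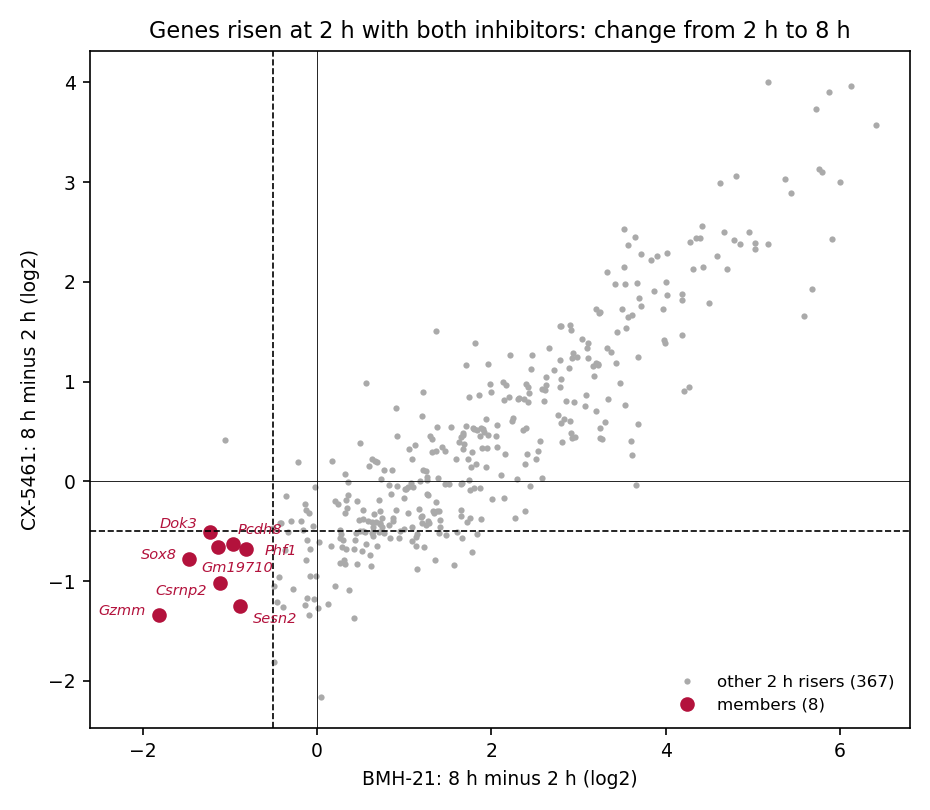
Change from 2 h to 8 h (log2, group means of 3 libraries) with BMH-21 (x axis) and with CX-5461 (y axis) for the 375 genes at least 0.8 above control at 2 h with both. These genes also had a deposited mean of at least 0. Dashed lines mark the criterion of -0.5. The 8 genes, in red, fill the lower left corner by construction, and 64 of the 367 others, in grey, lie below the horizontal line alone.

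The edges of the rule show how near other genes came. Lif, the cytokine that sustains these cells, missed by its change from 2 h to 8 h with BMH-21, which was -0.499, and Lcat, an enzyme of lipoprotein metabolism, by one of -0.49. C2cd4b missed with CX-5461 alone (-0.46), and Cyp1b1, a target of the aryl hydrocarbon receptor, went the other way (0.41). Socs1, a feedback inhibitor of cytokine signalling, stood 0.75 above control at 2 h of CX-5461 and the GTPase Rnd1 0.67. Of the genes that missed only the 2 h criterion for BMH-21, Sac3d1 had 0.69 and the nuclear receptor Nr4a1 0.42. On the inside were Csrnp2 (0.98) and Sox8 (1.20) for BMH-21 at 2 h, and Gm19710 (0.80) and Sox8 (0.85) for CX-5461. For the decline they were Phf1 (-0.81) and Sesn2 (-0.88) with BMH-21, and Dok3 (-0.51) and Pcdh8 (-0.63) with CX-5461. The mean over libraries removed 97 genes that met every other criterion, the nearest being Isg20 (-0.55) and Scg3 (-0.76), while Gm19710 (0.24) and Gzmm (0.43) were the lowest kept.

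Membership depended on the scale, because the decline is relative to each library's median gene. On the values as deposited, the median change of all tested genes from 2 h to 8 h was 0.29 with CX-5461 and -0.31 with BMH-21. After centring these medians were -0.07 and -0.17, and under median-ratio scaling -0.0069 and -0.03. On the deposited scale the rule kept 8 genes, of which Gzmm, Sesn2 and Csrnp2 were among the 8 described here. On the deposited scale the CX-5461 change from 2 h to 8 h was -0.15 for Dok3, -0.27 for Pcdh8, -0.30 for Gm19710, -0.32 for Phf1 and -0.42 for Sox8. All 8 genes were lower at 8 h than at 2 h with both compounds on the centred, deposited, median-ratio and quantile-normalised scales. The shares left at 8 h, and the 8 h places above, within or below control, are those of the centred scale and shift with it. On the deposited scale Sesn2 had 2 h differences of 1.27 and 1.39 with BMH-21 and CX-5461, and changes to 8 h of -1.02 and -0.89.

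Function was examined with 14 lists of genes by role, which held 172 tested genes. Of these 33 passed the 2 h mark, and 1, Sesn2, was among the 8. The mark was a deposited mean of at least 0 and at least 0.8 above control at 2 h with both compounds. Tested genes with a lower mean were not counted as passing. Of all 14666 genes tested 375 passed that mark. The other 7 genes were in none of the lists. The AP-1, ATF and small MAF factors had 6 of 12 above that mark, and none declined with both. Fos, an AP-1 subunit, was 2.06 and 2.08 above control at 2 h with BMH-21 and CX-5461, then changed by 0.69 and -0.65 from 2 h to 8 h. Fosl1, another FOS family member, was 3.97 above with each, then changed by 1.40 and -0.52. In both, the criterion for decline was met with CX-5461 only. At 4 h 7 of the 12 were called higher with BMH-21 than with CX-5461 and 2 lower, beside 27.4% and 18.5% of all genes tested.

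Of the classical immediate early genes outside AP-1, 2 of 21, Ier5 and Arc, were past the 2 h mark, and at 4 h 5 were called higher and 9 lower with BMH-21 than with CX-5461, beside 27.4% and 18.5% of all genes. Egr1, a zinc finger factor, stood 0.47 and 0.40 above control at 2 h and then changed by -0.41 and -0.47. Arc, a regulator of synaptic receptors, stood 0.90 and 1.12 above and then changed by -0.34 and -0.51. The growth factor ligands had 2 of 12 genes past the mark (Gdf15 and Lif) and the MAPK feedback inhibitors 1 of 16 (Dusp2). The NF-kB genes had 1 of 15 (Cxcl10) and the actin or YAP targets 1 of 16 (Cyr61). The NF-kB target Cxcl1, at 1.82 and 1.13, missed the mark by its mean alone. The heat shock genes had 2 of 8, the aryl hydrocarbon receptor genes 1 of 8 (Cyp1b1) and the retinoic acid genes 1 of 5 (Cyp26b1). None of these genes was a member. The mark, with its mean criterion, was passed by 375 of all 14666 genes tested. Of the 11 pluripotency factors, 8 NRF2 genes and 8 P-TEFb and elongation genes, 0 passed it.

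The p53 targets were the list with most genes at the 2 h mark, 16 of 25, of which Sesn2 alone declined with both compounds, 7 declined with CX-5461 alone and 8 with neither. Cdkn1a, the inhibitor of cyclin-dependent kinases, stood 2.74 and 2.61 above control at 2 h and then changed by -0.08 and -0.95 from 2 h to 8 h. Mdm2, the ubiquitin ligase of p53, stood 2.30 and 2.38 above and then changed by 0.62 and -0.85. For the kinase gene Plk2 the values were 3.39 and 3.37, then 0.12 and -1.23. At 4 h 11 of the 25 were called higher with BMH-21 than with CX-5461 and 2 lower, beside 27.4% and 18.5% of all genes tested. Sesn2 was in neither group.

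ATF4 also acts on Sesn2. Of the 13 genes of the ATF4 and integrated stress response list, Sesn2 and Ddit4, an inhibitor of mTORC1, passed the 2 h mark. The list's median 2 h differences were -0.04 and -0.01. Atf4 itself stood at -0.92 and -0.66, and Chac1, a glutathione-degrading enzyme, was the lowest of the list at -1.12 and -0.98. Ddit3 stood at 0.51 and 0.13, Cebpb at 0.29 and 0.59, Asns at -0.00 and -0.05 and Ppp1r15a at -0.25 and -0.48. The part of ATF4 in the Sesn2 levels was not tested. Ddit4 was 2.15 and 2.39 above control at 2 h and went on by 1.43 and 0.35 to 8 h, unlike Sesn2. At 4 h 2 of the 13 were called higher with BMH-21 than with CX-5461 and 3 lower, beside 27.4% and 18.5% of all genes.

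Close relatives of the 6 coding genes other than Gzmm were looked at for the same pattern, and none met the rule. Of 22 paralogues, 13 were tested, and 1 of these, Sox10, was at least 0.8 above control at 2 h with both compounds, at 1.16 and 1.02. It went on by 1.21 and 0.89 to 8 h, whereas Sox8 declined. Sesn1 stood at 0.08 and 0.22 and Sesn3 at 0.04 and -0.15 at 2 h. Csrnp1, first described as induced by axin, was 0.95 below control with each compound. The other Polycomb-like genes, Mtf2 and Phf19, were at -0.19 and -0.40 and at -0.24 and -0.35. Among the tested paralogues, Pcdh17 came near the pattern, with 0.84 and 0.59 at 2 h and changes of -0.94 and -0.84 from 2 h to 8 h. Pcdh10, below the level for testing at 6 to 15 reads in control libraries, had 1.41 and 0.65 at 2 h and changes of -1.41 and -0.78. These families were chosen after the 8 genes were known.

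The 8 genes lie on 7 chromosomes, given on GRCm38 with GENCODE M21 models. They are Sesn2 at chr4:132492032-132510501 (minus strand, 10 exons), Pcdh8 at chr14:79766775-79771312 (minus, 3), Dok3 at chr13:55523231-55529296 (minus, 6) and Gzmm at chr10:79689020-79695261 (plus, 5). Phf1 at chr17:26933052-26937908 (plus, 15 exons) and Sox8 at chr17:25565892-25570686 (minus, 3) share a chromosome. Csrnp2 lies at chr15:100479570-100495488 (minus, 5) and Gm19710 at chr3:89998760-90021445 (plus, 4). All but Gm19710 code for protein. The genes were compact, with a median span of 6154 bases from first to last exon against 14305 in the other 367 genes and 23162 in all tested genes. The GC content of the longest transcript had a median of 57.4%, against 54.1% and 50.1%. The 1412 genes with the highest GC content had median 2 h differences of 0.02 and 0.05, and the 6971 genes no longer than the longest of the 8 had 0.01 and -0.01.

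Reads of overlapping genes on the other strand could enter the values of some of the 8, because the strand setting of the counting is not stated, although the library kit keeps strand. Phf1 shares 1370 of its 3486 exon bases with Cuta, which stood at -0.10 and -0.06 at 2 h, and 156 with a gene not in the table. Gm19710 shares 440 of 998 with Ubap2l, at 0.02 and -0.03, and 21 with Hax1, at 0.02 and -0.05. Sox8 shares 329 of 3118 with the antisense gene 2810468N07Rik, at -0.00 and -0.41, and Pcdh8 436 of 4538 with an antisense gene not in the table. The measured partners thus stood at most 0.02 above control at 2 h. From 2 h to 8 h Ubap2l changed by -1.02 and -0.45 and Hax1 by -0.86 and -0.50, the direction of Gm19710. Cuta changed by -0.66 and -0.46, the direction of Phf1, and 2810468N07Rik by -1.09 and -0.21, the direction of Sox8. The part of the partners in the later decline was not tested.

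None of the 16 tested genes that flank the 8 was at least 0.8 above control at 2 h with both compounds. The nearest to it were Kifc5b, 469 bases from Phf1, at 0.60 and 0.78, and Tekt4, the neighbour of Sox8 at 89290 bases, at 0.94 and 0.50. Tekt4 then went on by 5.88 and 3.64 to 8 h, opposite to Sox8.

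The promoters, taken from 250 bases before to 50 bases after the start, gave 9 windows for the 8 genes, 2 of them for Gzmm, among 32851 windows in RefSeq. RefSeq starts can differ from the GENCODE models given above. The Dok3 window and 1 Gzmm window lie inside these models and the Csrnp2 window almost wholly so. The Sesn2 and Phf1 windows are placed on starts inside them. Motifs were searched on both strands. The cyclic AMP response element TGACGTCA and the AP-1 site TGAGTCA were in 0 of 9 windows, against 1.79% and 5.20% of all windows and 2.94% and 3.81% of the 14009 windows of tested genes. The ETS site CCGGAAG was in 0, against 8.86% and 15.75%. The TATA box TATAAA was in that of Pcdh8 alone (13.6% of all and 7.43% of tested-gene windows), at the distance shown above, a place where 1.75% of all windows carry it on the gene's strand. The E-box CACGTG was in the Sox8 window and in 1 Gzmm window, where it began at -9 (7.15% of all and 9.515% of tested-gene windows), and TNGCGTG, the dioxin response element, in the other Gzmm window (5.07% and 7.57%). A single arm of the p53 site was found at 25 in Phf1 (8.36% and 7.05%). The CArG box was in 0 (1.63% and 1.285%), as was the NF-kB site (8.46% and 10.6%). Each match is a match of letters, and a window without one says nothing of sites elsewhere, which for p53 are often in introns. CpG counts ranged from 3 in each Gzmm window to 29 in that of Csrnp2, with a median of 7 over all windows.

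Whole reads recovered from the deposited values gave 46604397 to 62812641 reads a library, and no replicates of a group agreed within sampling noise (chi-square per degree of freedom of 2.58 or more). At this depth 5 of the 8 genes had at most 60 reads in each control library. The 8 embryonic stem cell markers, among them Pou5f1, Nanog and Sox2, summed to 5692 to 5743 CPM (reads scaled to the library's total) in control, 4668 to 4873 and 4678 to 4763 at 2 h of BMH-21 and CX-5461, 3689 to 3943 and 3993 to 4098 at 4 h, and 3483 to 3952 and 5137 to 5190 at 8 h. Trophoblast markers summed to 74.5 to 77.8 in control, 169 to 179 at 8 h of BMH-21 and 118 to 139 at 8 h of CX-5461, and neural markers to 181 to 227, 141 to 147 and 252 to 263. Fibroblast markers summed to 30.0 to 30.7 in control, and to 56.5 to 60.7 and 42.4 to 46.2 at 4 h of BMH-21 and CX-5461. Epiblast or early mesoderm markers summed to 68.6 to 70.6 in control, and to 18.9 to 19.6 and 36.5 to 42.9 at 4 h, so both lists differed between the compounds at the time of the test without overlap. No marker of the 6 lists was at 0 in all libraries of a group. The part of these shifts in the levels of the 8 genes was not tested.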

How the data were processed

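RNA-seq of poly(A) RNA was available for 21 libraries, 7 groups of 3, grouped by their titles. The authors deposited 1 table of log2 values, made with voom according to its name. All 21 columns were matched to samples by name. Per the submitters' processing notes, the build was mm10 and the tools included Trim Galore 0.5.0, TopHat2 2.1.1, R 4.0.5, DESeq2 1.30.1, edgeR 3.32.1 and limma 3.46.0. Counting program, annotation, strand setting and the origin of the scaling factors are not given in the sources used here.

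Taking a library's smallest value as 0 reads with an offset of 0.5, all values were whole reads to within 1.7e-08. The deposited factors implied by these reads ran from 0.832 to 1.375, against median-ratio factors of 0.852 to 1.27 that include depth. Values were centred on each library's median over 14666 genes above 0 in at least 3 libraries, and 6234 genes were left out of the tests. limma 3.58.1 (R 4.3.3) fitted 1 mean per group over 21 libraries, with eBayes and a mean-variance trend. The fit was tested on simulated data of 14666 genes, with 100 changed by 1.0 and 100 by 0.5. It recovered 96 and 87 of these, and 14 of 197 calls were false. Far fewer genes were changed there than the 45.8% called between the compounds here. The 0.5 offset makes differences of low genes smaller. RPKM was computed here from the recovered reads and exon lengths of GENCODE M21, to which 95.8% of symbols matched.

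All 8 genes are named and shown by library, the paralogues were chosen after them, and non-member genes come from the role lists, the rule's edges, the paralogues and the neighbours. The genes, the lists and the motifs were chosen with earlier results of these data known. Alternatives were other scalings, thresholds, filters, offsets and variance models, the replicate number as a block, and leaving out each library. No count model was used.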

Additional observations from a re-analysis of the deposited data

How the results depend on the processing

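The 8 genes of the rule became 5 with an offset of 5 reads, 2 (Gzmm and Sesn2) with thresholds of 1.0 and -0.7, 29 with 0.6 and -0.3, 105 without the filter on the mean and 3 (Sesn2, Phf1 and Csrnp2) with a mean of at least 2. Median-ratio factors left 7, all of the 8, and quantile normalization gave 11, of which 6 were of the 8. Taking the mean over the 15 libraries not at 4 h, an alternative chosen after seeing the data, kept 8, the same genes. Leaving out 1 library gave 6 to 10 genes. Pcdh8, Gzmm, Sesn2, Phf1 and Csrnp2 were kept in 21 of 21 such sets, Sox8 in 20, Dok3 and Gm19710 in 17. Dok3 was lost without replicate 2 or 3 of CX-5461 at 2 h or at 8 h, Gm19710 without replicate 1 or 3 of the control or replicate 2 or 3 of CX-5461 at 2 h, and Sox8 without control replicate 3.

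Between the compounds at 4 h, Pcdh8, Dok3, Gzmm, Phf1 and Csrnp2 were called under all alternatives, also with any 1 replicate left out. Sox8 was not called on the deposited scale (0.45, limma adjusted p = 0.12) or in some of the fits with 1 replicate left out. Sesn2 was called under no alternative. Gm19710 is not counted, because it met the mean criterion only through the BMH-21 libraries. Of all genes tested 27.4% were called higher with BMH-21 on the centred scale, so such a call was common. Calls over all genes went from 6719 to 2617 on the deposited scale, and the share of them that were higher with BMH-21 was 59.7% in the centred fit, 52.4% deposited, 48.3% quantile-normalised and 42.2% with median-ratio factors. Against control the share of calls that were higher was 43.7% centred and 32.9% deposited for BMH-21, and 38.4% centred, 27.9% deposited and 47.7% with median-ratio factors for CX-5461. The Sesn2 difference at 4 h turned to -0.012 with median-ratio factors and -0.054 with quantile normalization. Against control at 4 h of CX-5461, Gzmm turned to -0.14 and Gm19710 to -0.022 with quantile normalization. Gm19710 passed the threshold without replicate 2 of CX-5461 (0.58, limma adjusted p = 0.021) or of the control (0.59, adjusted p = 0.019). The control libraries helped choose the genes, so nothing is read from these calls. The cause of these shifts was not tested.

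Replicates of the same number did not deviate together (correlations of -0.07 to 0.08 over 9 pairs). The replicate block gave 6535 calls in place of 6719 between the compounds, 10729 in place of 10799 and 10777 in place of 10877 against control, and moved no call of the 8. Depth limits the genes with at most 60 reads in a control library.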
